A study of Mus musculus with 10 samples.

Results

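The genes described are 7 that mark white and brown adipocytes, taken by symbol from a table of 24537 genes measured by bulk RNA-seq in mouse hearts: Adipoq, Cfd, Retn, Lep, Plin1, Ucp1 and Cidea. All 7 were in the table. They were read as a measure of fat attached to the dissected heart in each library. Of the 7, 6 were at or close to 0 in every heart, and Cidea was measured at 206 to 385.5 counts per library in all 10. Which cells gave the few counts of the 6 was not tested. The 6 are called the restricted adipocyte genes below, as against Cidea.

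Hearts came from 10 mice aged 6 weeks, 5 control (Rosa26-rtTA2+/-;TRE-SOD2-shRNA-/-) and 5 iSOD2 (Rosa26-rtTA2+/-;TRE-SOD2-shRNA+/-). All carried 1 copy of the transactivator under the ubiquitous Rosa26 promoter, and their dams ate doxycycline chow from mating until birth, so both genotypes were exposed to the drug in utero. Only iSOD2 mice also carried the hairpin against Sod2 (at the Col1a1 locus), so SOD2, which removes superoxide inside mitochondria, was knocked down in the whole embryo and not in a chosen cell type, and the knockdown was not ongoing at harvest. There were 3 male and 2 female controls and 2 male and 3 female iSOD2 mice. Both genotypes were split over the litters in the same way, 2 mice in litter A and 3 in litter B. Sex was not balanced over the litters. In litter A control mice 1 and 2 and iSOD2 mouse 7 were male and iSOD2 mouse 8 was female. In litter B control mouse 3 and iSOD2 mouse 9 were male. The others of litter B, control mice 4 and 6 and iSOD2 mice 5 and 10, were female. The sex and litter comparisons are therefore partly mixed.

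Adipocytes store triglyceride in lipid droplets and secrete hormones and other proteins into blood. White adipocytes release adiponectin and leptin, while brown adipocytes carry many mitochondria and make heat through UCP1, which lets protons return to the matrix without making ATP. Fat lies on the surface of the heart and around it, in amounts that differ between species and are small in young mice. Cardiomyocytes also take up, store briefly and burn fatty acids, so the heart shares with fat many genes of lipid uptake, storage and oxidation. RNA from bulk tissue mixes cell types, and fewer cells of a type cannot be told apart from less RNA per cell.

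Library totals over genes were 16.4 to 24.3, in units of 1000000 counts. A count of 0 in a library allowed up to 3 counts, which is 0.124 to 0.182 CPM (counts per 1000000 counts over genes) depending on its depth, and intervals and limits of this kind cover counting error only. Sod2, the targeted gene, was at 10573 ± 588 normalized counts in the control group and at 10781 ± 449 in the iSOD2 group (SD, 5 hearts per group; DESeq2 adjusted p = 0.806). The 6 ventricular cardiomyocyte markers examined ran from 1294 (Ryr2) to 28981 (Myl2) TPM (the level per exon length, scaled to sum to 1000000 over the table), so the tissue label held. Hearts differed in markers of other tissues, and the values are given beside the results they touch.

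The secreted products of white fat came first. Adipoq encodes adiponectin, the abundant adipocyte hormone that acts through AdipoR1, AdipoR2 and T-cadherin. It had 4, 0, 4, 1 and 0 counts in control mice 1, 2, 3, 4 and 6, and 3.5, 1, 0, 5 and 4 in iSOD2 mice 5, 7, 8, 9 and 10. Genotypes overlapped throughout, and the highest library, iSOD2 mouse 9, had 5 counts. Over 10 libraries the sum was 22.5 counts, a mean of 0.239 TPM.

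Cfd encodes adipsin, or complement factor D, the protease that starts the alternative complement pathway and is made mainly by adipocytes. Its counts were 4.5, 3, 1, 2 and 11.5 in controls and 1, 2.5, 0, 8 and 9 in iSOD2 hearts, again with full overlap of genotypes. This was the highest of the restricted genes, with 42.5 counts in all and a mean of 0.610 TPM, and its highest values were in control mouse 6 and iSOD2 mice 9 and 10.

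Retn encodes resistin, which rodent adipocytes secrete, and it was at 0 in 8 of 10 libraries. Control mouse 6 had 2 counts and iSOD2 mouse 10 had 1. Lep, which encodes the satiety hormone leptin, was at 0 in 5 libraries. Single counts were found in control mice 3, 4 and 6 and in iSOD2 mouse 8, and 2 counts in iSOD2 mouse 10. Neither gene reached 10 counts over the 10 libraries, so neither entered the fitted comparisons.

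Plin1 encodes perilipin 1, the coat protein of the adipocyte's lipid droplet that gates access of lipases. It had 0, 1, 1, 2.5 and 5 counts in controls and 0, 0, 0, 3 and 3.5 in iSOD2 hearts, 16 in all (mean 0.113 TPM). Ucp1, the defining gene of brown and beige adipocytes, had 3, 3, 0, 7.5 and 2.5 counts in controls and 0, 1, 0, 0 and 3 in iSOD2 hearts, 20 in all (mean 0.163 TPM). Ucp1 was thus at 0 in 1 control and 3 iSOD2 libraries, and the groups overlapped.

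Cidea encodes a lipid droplet protein that enlarges droplets by fusion and is a widely used marker of brown fat. Its counts were 385.5, 255.5, 206, 328 and 331 in controls and 339.5, 288, 308, 333.5 and 358 in iSOD2 hearts. Its level was 35.1 ± 3.63 TPM (SD, n = 10), higher than 84.1% of the genes in the table. The restricted genes sat at the 21.2 (Lep) to 37.4 (Cfd) percentile of the same order, where 40.8% of all genes had a mean below 1 TPM. From highest to lowest mean TPM the order was Cidea, Cfd, Adipoq, Ucp1, Plin1, Retn and Lep, and below Cidea each gene's range over libraries overlapped that of its neighbours. Normalized Cidea counts varied with a coefficient of variation of 9.75% over the 10 hearts, where counting alone would give 5.73%.

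**Figure D1:**
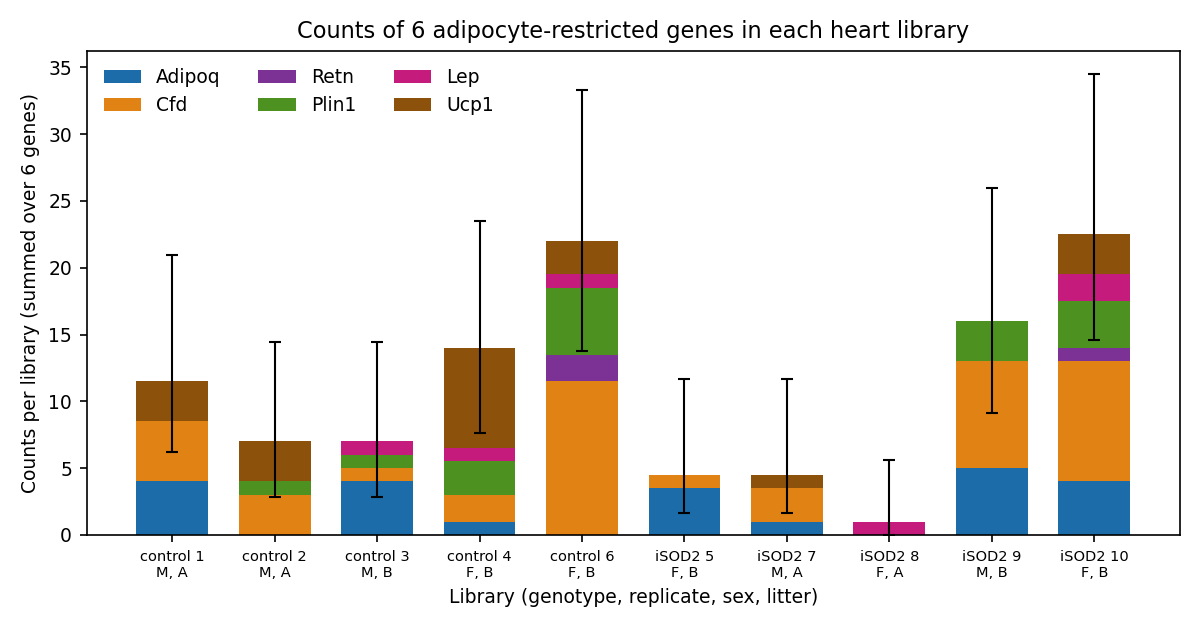
Stacked bars give the counts of 6 restricted adipocyte genes in each heart library (x axis: genotype, replicate, sex M or F, litter A or B; y axis: counts), and the lines give the exact Poisson 95% interval of their sum. The sums run from 1 count in iSOD2 mouse 8 to 22.5 in iSOD2 mouse 10, and both genotypes hold low and high libraries.

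Summed over the 6 restricted genes, control mice 1, 2, 3, 4 and 6 had 11.5, 7, 7, 14 and 22 counts. The iSOD2 mice 5, 7, 8, 9 and 10 had 4.5, 4.5, 1, 16 and 22.5. The lowest, 0.0431 CPM in iSOD2 mouse 8 (exact Poisson 95% interval 0.00109 to 0.240), and the highest, 1.09 CPM in control mouse 6 (0.685 to 1.65), had intervals that did not overlap. Those limits describe counting in single libraries. Only in iSOD2 mouse 10 were all 6 genes detected, and in iSOD2 mouse 8 only Lep was.

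Cidea differed from the 6 in level and in spread. In iSOD2 mouse 8, where the 6 restricted genes together had 1 count, Cidea had 308, and in iSOD2 mouse 10, where they had 22.5, it had 358. Hearts fell into the same upper and lower 5 for both, as seen on looking through the values and given without a test. The order within each 5 was not the same. Control mouse 3 had the highest rate of the restricted genes in the lower 5 (0.426 CPM) and the least Cidea (12.5 CPM). The 5 hearts with the highest rates of the 6 (0.490 to 1.09 CPM) were the same 5 with the most Cidea, at 15.7 to 16.9 CPM against 12.5 to 13.99 in the other 5, where the restricted genes had 0.0431 to 0.426 CPM. On normalized counts Cidea was at 324 to 349 in the first 5, of which 4 were of litter B, and at 258 to 305 in the rest.

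At its 5′ end Cidea (NM_007702, mm10 chromosome 18, 67343564 to 67367794, plus strand) overlaps the noncoding gene B430212C06Rik on the other strand over 540 bases, with 0 exon bases shared, and that gene had 37 to 70 counts. Counting gave no strand option. The 0 shared exon bases refer to exons of the GENCODE annotation, with 1115 bases for Cidea. The transcript counted has 1157 exon bases and starts earlier, at 67343564 against 67343604 in GENCODE. Whether the exons as counted share bases was not tested. No other gene in the GENCODE annotation of this build overlapped the remaining 6, which lie on chromosome 16 (Adipoq, 23146536 to 23157968), 10 (Cfd, 79890853 to 79892655), 8 (Retn, 3655770 to 3659818, and Ucp1, 83290348 to 83298456), 7 (Plin1, 79721164 to 79732776) and 6 (Lep, 29060221 to 29073876).

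Related genes were read beside the members to ask whether the heart held other forms of the same proteins. These relatives were chosen after values were seen and are described without a test. Among perilipins, which coat lipid droplets, Plin4 had 212 ± 31.9 TPM, Plin3 163 ± 11.5, Plin5 130 ± 13.2 and Plin2 78.4 ± 7.66 (SD, n = 10), against 0.113 ± 0.124 for Plin1. Plin4 exceeded Plin3, and Plin3 exceeded Plin5, in 10 of 10 libraries although their ranges over libraries overlapped. The ranges of Plin5 and Plin2 did not overlap. Plin1 was at most 0.358 TPM, where Plin2, the lowest of the others, was never below 66.6.

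Of the CIDE proteins, which govern droplet size, Cidea was highest, Cideb, better known in liver, had 5.27 ± 1.28 TPM, and Cidec, the family member of large white-fat droplets, had 0.240 ± 0.157. The 3 ranges were separate. Thus the CIDE gene of white fat, like Plin1, was low, at 0.5 to 7.5 counts per library. Of the uncoupling proteins, Ucp2 had 81.1 ± 14 TPM and Ucp3, the form of heart and skeletal muscle, 61.5 ± 18.1, with Ucp2 above Ucp3 in 9 of 10 libraries and overlapping ranges. Ucp1 never exceeded 0.609 TPM and Ucp3 was never below 36.7.

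In the resistin family, Retnla had 5.52 ± 2.69 TPM and Retnlg, a myeloid product, 0.413 ± 0.305, while Retnlb was at 0 in all 10 libraries. Adiponectin's relatives, the C1q and TNF related proteins, were led by C1qtnf9, which the heart is known to express, at 44.7 ± 8.19 TPM. C1qtnf2, C1qtnf6, C1qtnf1 and C1qtnf7 lay between 10.1 and 11.8 TPM with overlapping ranges. C1qtnf3, at 0.254 TPM, was above Adipoq in 5 of 10 libraries and below it in the other 5.

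**Figure D2:**
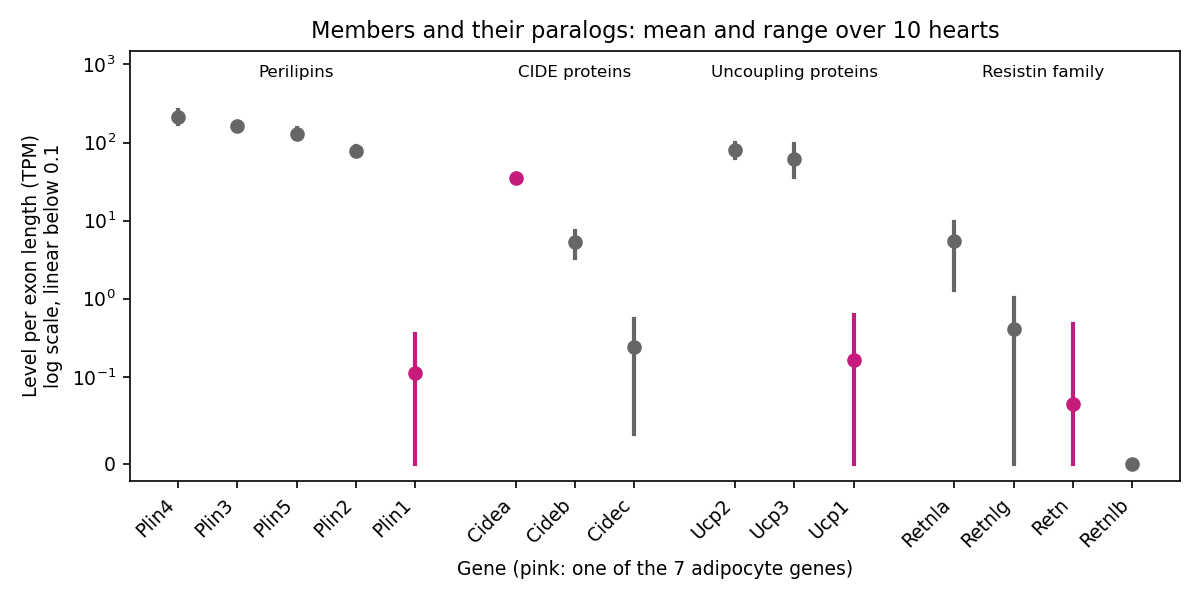
Mean level (points) and range over 10 hearts (lines) of members (pink) and their relatives (grey), by gene on the x axis and in TPM on the y axis, which is logarithmic above 0.1 and linear below. Plin1, Ucp1 and Retn lie below 1 TPM while Plin2 to Plin5, Ucp2 and Ucp3 lie between 61.5 and 212, and Cidea is the highest of its family.

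The receptors of these hormones were measured well above them. Cdh13 (T-cadherin) had 156 ± 8.13 TPM, Adipor1 152 ± 5.53 and Adipor2 72.7 ± 5.55, all adiponectin receptors. Cap1 and Tlr4, both proposed to bind resistin, had 56.6 ± 3.56 and 19.2 ± 2.82, and the leptin receptor Lepr 6.14 ± 1.39 (SD, n = 10). None of these 6 receptor genes was called between genotypes, where 2.96% of all genes with an adjusted p were. Downstream of adipsin, C3 had 66.0 ± 17.7 TPM and Cfp (properdin) 12.1 ± 1.83.

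Next, 6 lists of other genes known from fat were described, 77 genes in all: adipogenic regulators, fuel uptake, lipogenesis, the lipid droplet, and further white and brown genes. Of the 77, 53 had a mean of at least 10 TPM and 12 a mean below 1 TPM. Those 12 were largely genes of narrow use: Acvr1c, Adrb3 (the adipocyte β-adrenergic receptor), Hcar1 (the lactate receptor of fat), Lgals12, Cidec, Elovl3, Bmp8b, Zic1, Otop1 and Lhx8, with Elovl6 and Pnpla3 just under the line at 0.859 and 0.796 TPM. Lhx8 was at 0 in all 10 libraries and Zic1, a marker of classical brown fat, reached 1 count. Dlk1, the preadipocyte factor, had at most 3 counts. Of the 11 further white genes 4 had a mean below 1 TPM, and of the 19 brown and thermogenic genes 5 had. Among white genes above that line Npr3 had 15.4 ± 1.85 TPM, Sncg 12.3 ± 2.89, Nrg4 6.22 ± 0.376 and Tusc5 3.62 ± 0.434. In the brown list P2rx5 had 13.1 ± 1.53 and Prdm16 9.06 ± 1.25, and among the regulators Ebf2 had 8.22 ± 0.655.

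Genes that fat shares with muscle and endothelium were abundant. In fuel uptake, Lpl, the lipase that frees fatty acids from lipoproteins, had 1863 ± 229 TPM, the transporter Cd36 958 ± 69.4, Fabp4, carried by endothelium as well as adipocytes, 751 ± 160, and the glucose transporter Slc2a4 383 ± 29.1. In droplet turnover Fitm1, Fitm2 and the triglyceride lipase Pnpla2 had 266 ± 23.6, 234 ± 11.4 and 198 ± 18.6. In the brown and thermogenic list Fabp3 had 7021 ± 539, Cox7a1 3072 ± 288, Cox8b 2495 ± 240 and Cpt1b 727 ± 53.5, all genes of oxidative muscle too. Pparg, the master regulator of adipogenesis, had 11.5 ± 1.78 and Cebpa 6.32 ± 0.939.

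**Figure D3:**
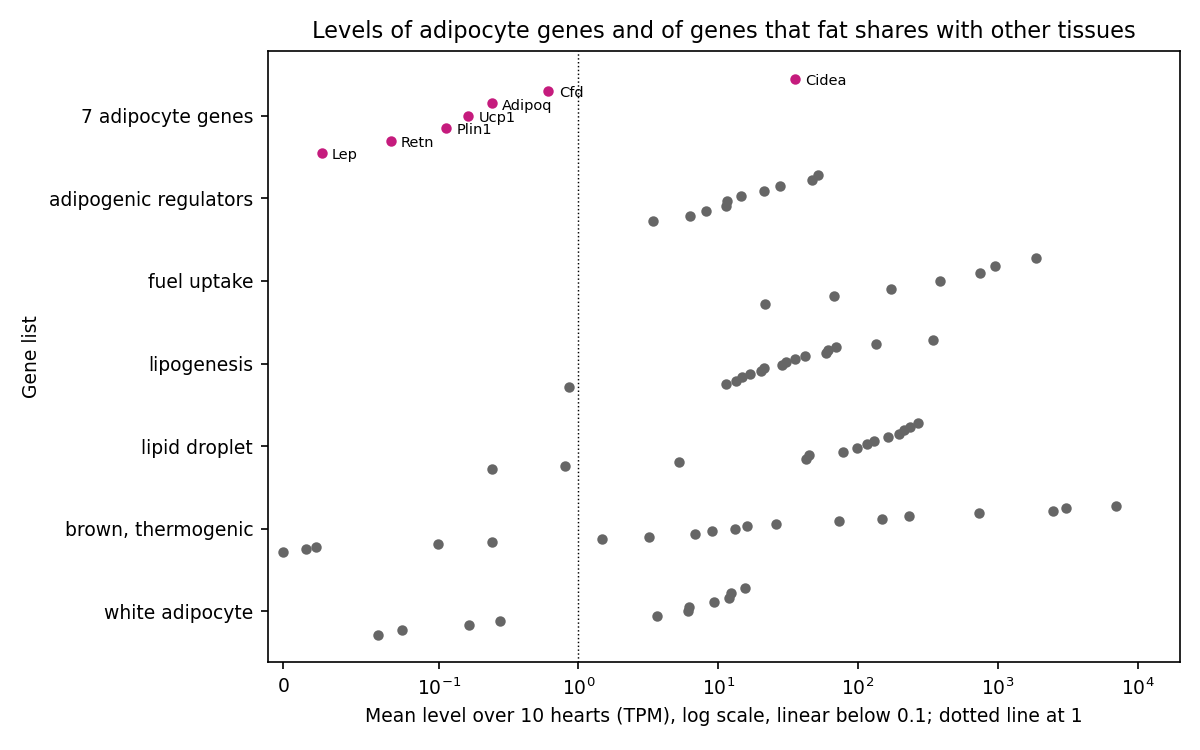
Mean level over 10 hearts (x axis, TPM, logarithmic above 0.1 and linear below) of each gene of 7 lists (y axis), with the 7 adipocyte genes in pink and a dotted line at 1 TPM. Cidea lies among the lipid genes that heart and fat share, and the other 6 lie below the line.

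Genotype was compared first among the contrasts, to ask whether adipocyte genes differed after the embryonic loss of SOD2. With DESeq2 across all genes, 5 of the 7 members entered the fit and 0 of 7 were called (adjusted p at most 0.05 and absolute log2 fold change above 0.25), where 2.96% of the 9479 genes with an adjusted p were called. None had an unadjusted p under 0.05, and edgeR, whose filter kept only Cidea, also called 0. Cidea alone received an adjusted p. Its mean was 314 ± 35.1 normalized counts in control hearts against 304 ± 27.4 after embryonic knockdown (SD over 5 hearts), and the log2 fold change was -0.05 with SE 0.10 and a DESeq2 adjusted p of 0.816 (edgeR adjusted p = 0.819). The 95% interval ran from -0.25 to 0.14, or 0.842 to 1.10 fold, so larger changes of Cidea lie outside it. Male hearts gave a log2 ratio of 0.04, female hearts -0.14, litter A -0.20 and litter B 0.05.

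**Figure D4:**
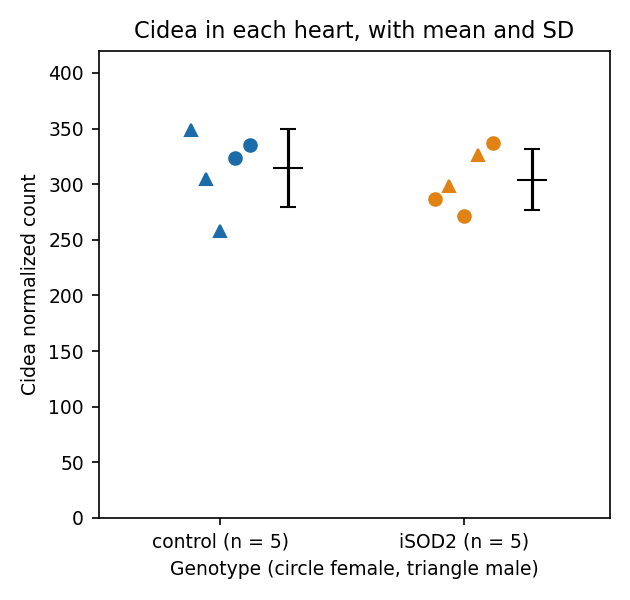
Normalized Cidea counts (y axis) in each control and iSOD2 heart (x axis), with circles for females, triangles for males and the mean with SD of 5 hearts beside each group. Means of 314 and 304 differ by less than the SD of either group, and the points overlap.

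Of the 4 restricted genes in the fit, Ucp1 had the largest fitted difference between genotypes. It had 16 counts in controls and 4 in iSOD2 hearts, a ratio of rates of 0.224 (exact 95% interval 0.0546 to 0.695, for counting error only). That interval leaves out the spread between mice. The DESeq2 log2 fold change was -2.11 with SE 1.20 and 95% interval -4.47 to 0.24. A two-sided exact permutation test over 252 arrangements of the mice gave p = 0.135. Control mouse 4 held 7.5 of the 16 counts. The ratio of rates was 0.334 without control mouse 4 and 0.0694 without iSOD2 mouse 10, the extremes on leaving out each mouse. A difference in Ucp1 was therefore not detectable beyond the spread between mice at this depth.

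The other restricted genes differed between genotypes by less than their errors. DESeq2 log2 fold changes were 0.45 (SE 1.06) for Adipoq, -0.25 (SE 0.88) for Cfd and -0.51 (SE 1.28) for Plin1. Exact permutation p-values were 0.659, 0.857 and 0.508, and those of Retn and Lep 1 and 0.762. Together the 6 genes had 61.5 counts in controls and 48.5 in iSOD2 hearts, 0.620 and 0.439 CPM, a ratio of 0.708 (exact 95% interval 0.477 to 1.05). Without iSOD2 mouse 10 that ratio was 0.469.

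**Figure D5:**
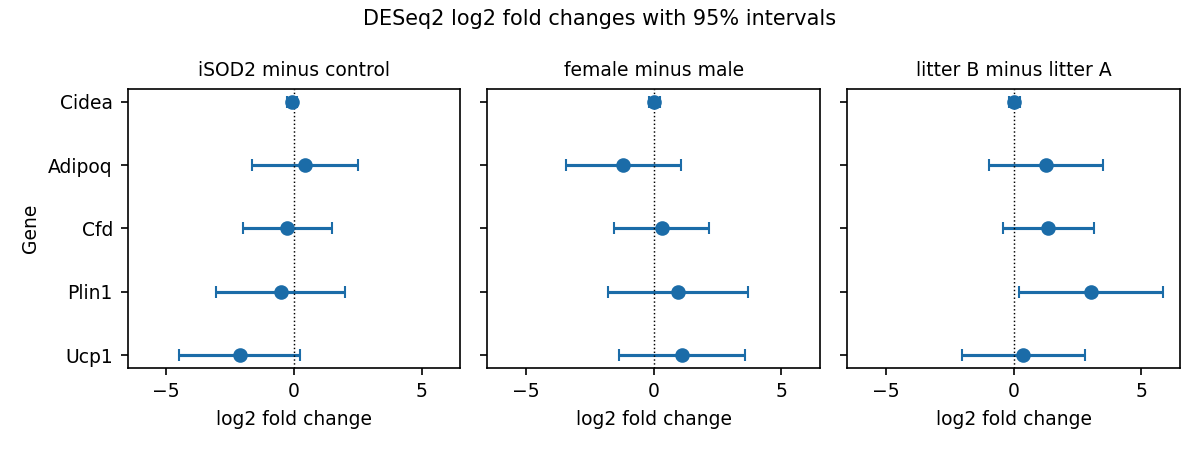
DESeq2 log2 fold changes (x axis) with 95% intervals for the 5 members that entered the fit (y axis), for genotype, sex and litter. Cidea has narrow intervals that include 0 in all 3 panels, the restricted genes have wide ones, and Plin1 by litter (0.23 to 5.85) is the only interval that leaves out 0.

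Females were compared with males next, with genotype in the model. None of the 7 members was called, where 0.420% of 17379 genes were, and 0 had an unadjusted p under 0.05. Cidea differed by 0.02 on the log2 scale (SE 0.11, 95% interval -0.19 to 0.23, DESeq2 adjusted p = 0.9997). The 6 restricted genes had 64 counts in 5 females and 46 in 5 males, a ratio of rates of 1.28 (exact 95% interval 0.860 to 1.91). That ratio takes no account of litter. In the shared genes Fabp4 was higher in females by 0.39 (SE 0.11, DESeq2 adjusted p = 0.0457), a call made in 6 of 16 alternatives and lost without any of the controls or without iSOD2 mouse 5 or 10 (adjusted p up to 0.458), and in edgeR (adjusted p = 0.303), with the length trend removed (0.0710) and with litter as covariate (0.31 on the log2 scale, DESeq2 adjusted p = 0.230).

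The restricted genes had more counts in litter B than in litter A. The 6 libraries of litter B held 86 of their counts and the 4 of litter A 24, or 0.695 against 0.280 CPM, a ratio of 2.48 (exact 95% interval 1.56 to 4.08, counting error only). Libraries nevertheless overlapped, with 4.5 to 22.5 counts in litter B and 1 to 11.5 in litter A. Within controls the rates were 0.752 (B) and 0.441 CPM (A), and within iSOD2 hearts 0.645 and 0.125. These rates and their ratio take no account of sex, and both controls of litter A were male. Leaving out each heart in turn kept the ratio between 1.89 (without iSOD2 mouse 8) and 3.46 (without control mouse 1).

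By gene, litter B against A was 15 against 1 count for Plin1, 32.5 against 10 for Cfd, 17.5 against 5 for Adipoq, 5 against 1 for Lep, 3 against 0 for Retn and 13 against 7 for Ucp1. None of the 7 was called by DESeq2, where 3.50% of 15654 genes were, and edgeR, whose filter kept only Cidea, called 0. Of the members only Cidea received an adjusted p here, so the restricted genes could not be called whatever their difference. Plin1 was the member with an unadjusted p under 0.05 (log2 fold change 3.04, SE 1.43, DESeq2 unadjusted p = 0.0339), with no adjusted p because its counts were too low. Its exact permutation p over 210 arrangements was 0.0476, the 1 value under 0.05 among 21 exact tests of 7 genes in 3 comparisons, and no adjustment over the members is given. Cidea differed between litters by 0.03 (SE 0.10, 95% interval -0.18 to 0.23, DESeq2 adjusted p = 0.952).

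Interactions were tested to ask whether genotype acted differently by sex or by litter. No member was called in the genotype by sex term, where 0% of 17725 genes were (210 had an unadjusted p under 0.05), or in the genotype by litter term, where 0.00564% of 17721 were. The unadjusted count among members was 0 in both. For Cidea the 2 terms were -0.18 (SE 0.23) and 0.25 (SE 0.22) on the log2 scale, with DESeq2 adjusted p-values of 0.99995 and 0.99998. edgeR was not run for these terms.

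In the supporting lists of adipocyte genes 5 were called between genotypes. Of 10 adipogenic regulators 1 was higher in iSOD2 hearts, Cebpb (log2 fold change 0.63, SE 0.18, DESeq2 adjusted p = 0.0171), an early transcription factor of adipogenesis that is also induced in inflammation. Of 16 lipogenic genes Thrsp was higher (0.57, SE 0.15, DESeq2 adjusted p = 0.00714) and Scd2 lower (-0.27, SE 0.07, DESeq2 adjusted p = 0.00677). Of 19 brown and thermogenic genes Cox8b, a muscle and brown fat subunit of cytochrome c oxidase, was higher (0.26, SE 0.06, DESeq2 adjusted p = 0.00103), and of 5 complement genes C3ar1, a receptor of myeloid cells, was lower (-0.35, SE 0.11, DESeq2 adjusted p = 0.0257). No gene was called among 14 lipid droplet, 7 uptake, 11 further white adipocyte and 6 adipocyte progenitor genes. Of these lists 11, 7, 2 and 4 genes received an adjusted p, and the rest could not be called whatever their difference. None of the 5 calls held in edgeR (adjusted p = 0.120, 0.0904, 0.0674, 0.0649 and 0.101), which called 0 of all genes between genotypes (2559 had an unadjusted p under 0.05), nor when the trend of fold change with exon length was removed, where Cox8b differed by 0.08, Cebpb by 0.56, Thrsp by 0.46, C3ar1 by -0.30 and Scd2 by -0.20. With sex as covariate Scd2 fell under the fold limit (-0.246) and C3ar1 had an adjusted p of 0.0579, and neither was called with sex and litter together. Among single mice, leaving out control mouse 3 ended the calls of Cebpb, Scd2, Cox8b and C3ar1. Leaving out control mouse 2 ended those of Cebpb, Scd2 and C3ar1, control mouse 6 or iSOD2 mouse 5 those of Cebpb, Cox8b and C3ar1, control mouse 1 that of Cebpb, and iSOD2 mouse 7 or 10 that of C3ar1. The highest adjusted p without a mouse was 0.111 for Cebpb, 0.0517 for Scd2 and 0.119 for C3ar1. Cox8b, with an adjusted p of at most 0.0154, and Scd2 without control mouse 2 were lost on the size of the fold change.

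Other genes of these lists passed only under an alternative. With litter as covariate Fabp4 was called higher in iSOD2 hearts (log2 fold change 0.34, DESeq2 adjusted p = 0.0409), as was Ly6a (0.26, DESeq2 adjusted p = 0.0309), and with sex and litter Fabp4 still was (0.30, DESeq2 adjusted p = 0.0289). Fabp4, Lpin1, Kcnk3 and Pck1 were called without control mouse 4, Lpin1 and C3 without iSOD2 mouse 5, Kcnk3, Zfp423, C3 and Cfb without iSOD2 mouse 7, C3 without control mouse 3, and Zfp423 with no count filter.

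Median log2 fold changes of these lists were 0.05 for adipogenic regulators, 0.01 for lipogenesis, 0.11 for the brown and thermogenic list, 0.07 for the lipid droplet, 0.08 for uptake and 0.05 for further white genes, where that of all genes was -0.002. Counts of called genes were 1 of 10, 2 of 16, 1 of 19, 0 of 14, 0 of 7 and 0 of 11, beside the 2.96% called over all genes with an adjusted p. In the same order 8, 15, 11, 11, 7 and 2 genes had an adjusted p, and only those could be called. Of the 5 complement genes 1 was called and 3 had an adjusted p. These lists were typed with earlier results of these data known, and the shares are descriptions.

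By litter, the lists held other called genes. Gpihbp1, which anchors LPL on capillaries, was higher in litter B (log2 fold change 0.47, SE 0.08, DESeq2 adjusted p = 3.2e-07), as were the fatty acid binding protein Fabp5 (0.44, SE 0.10, DESeq2 adjusted p = 0.000984) and Mgll, the monoglyceride lipase (0.33, SE 0.08, DESeq2 adjusted p = 0.00162). Of 6 progenitor genes 3 were called, beside 3.50% of all genes with an adjusted p. Pi16, Cd34 and Ly6a were higher by 0.52, 0.45 and 0.31, genes that fibroblasts, endothelium and stromal cells of heart also express. Cdh5, an endothelial cadherin, was higher by 0.32 and the smooth muscle actin Acta2 by 0.96, while Tlr4 was lower by 0.31. Except for Ly6a and Tlr4, called in 12 and 13 of 16, these calls held in all 16 alternatives. Ly6a was lost without control mouse 1 or iSOD2 mouse 7 (adjusted p up to 0.119) and Tlr4 without control mouse 2 or iSOD2 mouse 8 (up to 0.102). Other endothelial, smooth muscle and progenitor markers were not called by litter. Endothelial Pecam1, Tie1, Kdr and Vwf differed by 0.20, 0.04, -0.002 and -0.12. Smooth muscle Cnn1, Myh11 and Tagln differed by 0.31, -0.07 and -0.08, and progenitor Dpp4 and Pdgfra by 0.27 and -0.11. Whether cell makeup had a part in the litter difference of the restricted genes was not tested.

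Markers of other tissues differed between hearts. The 8 hepatocyte markers summed to 26.7 to 752 TPM in controls and 359 to 1469 in iSOD2 hearts. Alb had 53 counts in control mouse 1 and 15490.5 in iSOD2 mouse 10. All 8 had a fitted log2 fold change above 0 for iSOD2 against control (median 1.18). All 8 were also above 0 for females against males (median 0.40) and for litter B against A (1.22), with 0 called in either. By genotype 1 of the 8 was called, beside 2.96% of all genes with an adjusted p. It was Apoa2 (0.85, SE 0.20, DESeq2 adjusted p = 0.00246), a call lost without control mouse 2 (adjusted p = 0.0882) and in edgeR (adjusted p = 0.0821). Among the fat lists, 4 genes with a mean of at least 5 TPM ranged over 10 fold between libraries: Pck1 (13 to 692.5 counts), Slc27a2 (6.5 to 313), Rbp4 (7.5 to 164.5) and Car3 (19 to 200.5). All 4 were lowest in control mouse 1 and highest in iSOD2 mouse 10, the same 2 libraries as Alb, and none was called. Between genotypes only Pck1 received an adjusted p (DESeq2 adjusted p = 0.123). Slc27a2, Rbp4 and Car3 had no adjusted p there, so they could not be called whatever their difference. Liver expresses these 4 strongly, and the part of liver RNA in their levels was not tested.

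The restricted adipocyte genes did not share that order in every library. Hepatocyte markers summed to 921 TPM in iSOD2 mouse 8, with 1 count over the 6 restricted genes, and to 26.7 in control mouse 1, with 11.5. Mesothelial markers, from the surface layer where epicardial fat would lie, summed to 25.9 TPM in iSOD2 mouse 10 and 9.17 to 15.2 in the other 9, and 5 of the 10 had a mean below 1 TPM. Atrial markers summed to 1169 TPM in iSOD2 mouse 8 and 81.5 to 456 elsewhere. Nppa alone gave 1159 of the 1169 TPM, and the maxima of Myl4 (64.7), Myl7 (84.4) and Sln (17.5 TPM) fell in other hearts. The neuronal markers Th and Chat were at 0 in all libraries, and thymus markers summed to 0.110 to 0.931 TPM. Lung epithelial markers summed to 5.45 TPM in control mouse 6, which also had the highest rate of the restricted genes, and to 0.608 to 1.61 in the other 9, and Scgb1a1, a club cell product, had its highest count of 14.5 there. Of 4 smooth muscle markers, Tagln was higher in iSOD2 hearts (0.40, SE 0.10, DESeq2 adjusted p = 0.00361), called in 17 of 18 alternatives, and Myh11 was higher (0.28, SE 0.09, DESeq2 adjusted p = 0.0491), called in 6 of 18 and lost without any mouse except control 6 and iSOD2 10. edgeR called neither (adjusted p = 0.0649 and 0.139). Acta2 and Cnn1, of the same list, differed by -0.07 and 0.07 and were not called, where 2.96% of all genes with an adjusted p were. The part of these cells in the adipocyte values was not tested.

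Across libraries, the genes most like each member by Pearson's r on log2(normalized count + 1), over the 13622 genes whose mean reached 20 or more, were Grpel1 (r = 0.89), 2310039L15Rik (0.88) and Oxa1l (0.87) for Adipoq, and Pknox1 (0.86), Tuft1 (0.84) and Pcdhb12 (0.83) for Ucp1 (n = 10 libraries). None of the 10 nearest genes of either was in an adipocyte list. With 0 to 7.5 counts behind each point these values describe the sparse counts and share the same libraries and depths. For Cidea, chosen after values were seen, the nearest were Lins1 (0.88), Kctd21 (0.86) and Itgb1bp1 (0.84), likewise in no adipocyte list.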

How the data were processed

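RNA depleted of ribosomal RNA was sequenced from 10 hearts. The authors trimmed reads, aligned them to mm10 with STAR and summed them over exons with HOMER, keeping 1 transcript per gene and stating no strand option. The authors deposited them as estimated counts, which step by 0.5 and carry no normalization, and beside them, in another unit, each gene's exon length as deposited, from which TPM was computed.

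Models used counts rounded to whole numbers and the 17728 genes that reached 10 counts over all libraries. Genotype was tested with DESeq2 1.42.0 (Wald test, R 4.3.3, no covariate, Benjamini-Hochberg over all genes), sex and litter with genotype as covariate, and interactions as product terms; calls needed an adjusted p of at most 0.05 and an absolute log2 fold change above 0.25. Exact permutation tests were two-sided, on normalized counts of single genes. Scripts were tested on simulated data. Alternatives were edgeR 4.0.16, TMM scaling, other filters, removal of the exon length trend, covariates and leaving out each mouse.

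Named genes were the members, up to 6 genes of each supporting list by level and any called gene, and the genes most like Adipoq and Ucp1. Other names, including genes of narrow use listed for low levels, those with a wide range and relatives of the members, were chosen after values were seen. The members and lists were chosen with earlier results of these data known. Each library is a separate mouse, and mice share 2 litters that the genotype model did not include, so p-values measure the spread between these mice; litter as covariate was an alternative. Some results under the naming rule are not reported here.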

Additional observations from a re-analysis of the deposited data

Results flagged for a closer look

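In 3 of 16 groups of 5 libraries, a single library stood apart from the other 4 of its genotype by Dixon's criterion, which chance meets in about 1 of 20 groups of continuous values. Cfd in control mouse 6 had 11.6 normalized counts (11.5 counts). Retn had 2.02 normalized counts in control mouse 6, from 2 counts, and 0.943 in iSOD2 mouse 10, from 1 count, with all other libraries of both genotypes at 0. Any count beside 4 libraries at 0 meets the criterion, so the Retn values are no sign of an unusual library. These libraries had the highest sums over the 6 restricted adipocyte genes, 22 and 22.5 counts, but the flagged counts are themselves part of those sums. Both libraries were of litter B.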

How the results depend on the processing

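Across 332 alternative values, 312 kept direction and call, and 0 of 7 members were called between genotypes, sexes or litters under every alternative. Directions turned for Cidea by genotype in males alone (0.039) and litter B alone (0.051), and by sex with the exon length trend removed (-0.011). They also turned with litter as covariate for the sex difference of Cfd (-0.58) and Plin1 (-0.054), and with sex as covariate for the litter difference of Ucp1 (-0.95). Leaving out each mouse gave ranges that crossed 0 for Cfd (-0.78 to 0.54) and Plin1 (-1.41 to 0.29) by genotype, Cfd (-0.64 to 1.05) and Cidea (-0.034 to 0.068) by sex, and Ucp1 (-0.42 to 0.76) and Cidea (-0.027 to 0.098) by litter; the cause was not tested. The genotype ratio of rates of the 6 restricted genes ranged from 0.469 to 0.878 and that between sexes from 1.03 to 1.59, with the within-group, leave-one-out and pooled values added after seeing the data. Over all genes the genotype calls were 281 with DESeq2, 133 with the length trend removed and 0 with edgeR, and the sex calls 73 and 29 (edgeR). The stricter filter and edgeR left only Cidea, and Retn and Lep had no fitted value under the main filter. In the main genotype and litter fits only Cidea received an adjusted p, so the restricted genes could not be called there. No paired analysis was possible because the genotypes share no replicate number. Depth limited every restricted gene, since sums of 3 to 42.5 counts over 10 libraries could show only large differences.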

Other observations

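Levels of Adipoq and Ucp1, on log2(normalized count + 1), had Pearson's r = -0.32 (permutation p = 0.350) and Spearman's rho = -0.34 (permutation p = 0.330) over 10 hearts. Control mice 2 and 6 and iSOD2 mouse 8, all at 0 counts of Adipoq, tied as farthest from its median, so each pair of them was left out in turn. Over the remaining 8 hearts r was -0.11 without both control mice (permutation p = 0.801; rho -0.23, permutation p = 0.585), -0.53 without control mouse 2 and iSOD2 mouse 8 (permutation p = 0.183; rho -0.46, permutation p = 0.256) and -0.60 without control mouse 6 and iSOD2 mouse 8 (permutation p = 0.114; rho -0.68, permutation p = 0.0751). Within controls r was -0.58 and within iSOD2 hearts 0.21, with 5 hearts each and no test. Other scalings, pseudocounts and leaving out single mice gave r between -0.58 and -0.21. With at most 7.5 counts behind any point, a relation between the white and the brown gene was not detectable.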
